A study of Caenorhabditis elegans with 3 samples.

Results

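The mRNAs of 45 Caenorhabditis elegans genes that make or use small RNAs were examined for contact with DCR-1, the single Dicer of the worm. The genes were taken as a list of pathway names, chosen with earlier results of these data known. They are 45 of the 19983 protein-coding genes in the name table used. A gene was counted as carrying a cluster when a crosslinked cluster of the coding transcript class named it, by symbol or sequence name, on its own strand. The roles were kept apart by function, with 10 Argonautes, 5 RNA-dependent RNA polymerases and cofactors, 7 genes for Dicer and its partners and 2 for the microprocessor. The other roles were 6 mutator factors, 5 partners of silencing complexes, 2 exonucleases, 4 RNA modifying enzymes and 4 nuclear and systemic factors.

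Several, though not all, small RNA pathways begin with double-stranded RNA or hairpins that Dicer cuts. The products are loaded into Argonaute proteins that recognise matching transcripts. In worms the first small RNAs can recruit RNA-dependent RNA polymerases, which copy the target and so produce secondary small RNAs for a further set of Argonautes. MicroRNAs take another route, in which the microprocessor frees a hairpin in the nucleus before Dicer trims it.

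The 3 libraries came from whole worms at the young adult stage of the FLAG:DCR-1 strain, a rescue strain in which DCR-1 carries the FLAG tag. The animals were labelled with 4-thiouridine (4SU) and UV irradiated, the lysate was treated with nuclease, and RNA held by DCR-1 was sequenced by in vivo PAR-CLIP, in which a crosslinked 4SU is read as C, so that T-to-C conversions mark the contact. Replicates 1 and 2 were treated with RNases T1 and V1 and had a custom 3' adapter. Replicate 3 is labelled with T1 alone, although the design text names both nucleases for the study, and it had the default adapter, so nuclease and adapter cannot be told apart. The labels do not state whether each library was made from its own culture, so differences between libraries may be technical. No library without the tag or without UV light was used here, and the level of each mRNA in the worms is not in the lists. In whole worms, fewer cells of a type and less RNA per cell cannot be told apart. The sources used here do not name the promoter of the tagged gene.

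Among the authors' cluster lists, that of T1/V1 replicate 1 held 399 clusters with 7829 reads, that of T1/V1 replicate 2 held 377 clusters with 10834 reads and that of T1 replicate 3 held 1304 clusters with 24992 reads. A pooled consensus list held 4705 clusters with 92004 reads, each with reads from at least 2 libraries, and a conservative list held 2508 of them. Every conservative cluster on a coding transcript had conversions in at least 2 libraries, although a few consensus clusters with such conversions were not in that list. Whole-worm tissue was represented by clusters on unc-54, a body wall muscle myosin, with 22 consensus clusters and 207 reads, and on the germ granule helicase glh-1, with 4 consensus clusters and 31 reads. Reads were not divided by transcript length and mRNA levels were not measured, so an order of genes by reads is not an order of contact per molecule.

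Of the 45 pathway genes, 17 carried a consensus cluster, or 37.8% (23.8% to 53.5%, exact 95% binomial interval, counting error only), against 11.5% of all protein-coding genes. In the conservative list 14 did, or 31.1% (18.2% to 46.6%), against 6.97% of all protein-coding genes. Taking the 5 lists together added no further member, and 17 of 45 stood against 12.5%. The clusters were small: with at least 5 reads required, 7 members were left, or 15.6% (6.49% to 29.5%), against 5.21% of all protein-coding genes. The genes were chosen with results of these data known, and neither mRNA level nor length was taken into account, so these shares are a description and no test was made of them. The members' 44 consensus clusters held 220 reads, which is 0.541% of the reads on coding transcripts in that list.

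**Figure D1:**
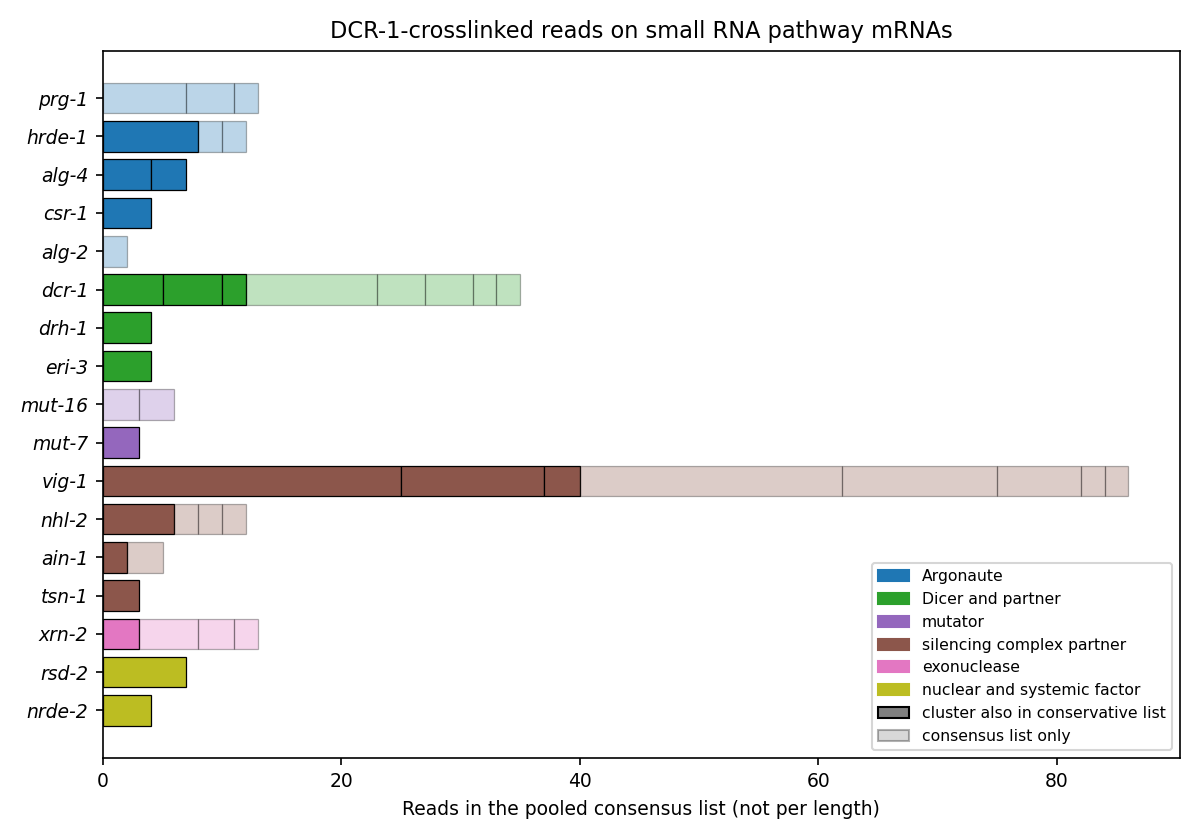
Reads in the pooled consensus list (x axis, not per length) on each of the 17 pathway mRNAs with a cluster, coloured by role, with 1 block per cluster and pale blocks for clusters that are not in the conservative list. vig-1 with 86 reads and dcr-1 with 35 stand above the other 15 mRNAs, which have 2 to 13 reads each.

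The plot of reads by gene shows how unevenly the reads fell. The mRNA of vig-1 held 86 of the 220 reads and that of dcr-1 held 35, each in 8 clusters, while the other 15 mRNAs had 1 to 4 clusters. Among all 2303 genes with a consensus cluster, 17 genes had 8 or more clusters. The median was 2 clusters and 6 reads per gene over the 17 members, and 1 cluster and 5 reads over the 2303 genes. In the conservative list the order of reads turned. The median there was 1 cluster and 4 reads over 14 members, and 1 cluster and 6 reads over 1393 genes.

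Argonautes with a consensus cluster numbered 5 of 10, with 10 clusters and 38 reads, against 11.5% of all protein-coding genes. In the conservative list 3 of 10 had a cluster, against 6.97%. The Argonaute mRNA with most reads was prg-1, which encodes the Piwi protein that binds piRNAs of the germ line. It had no cluster in any library list and 3 consensus clusters of 4, 2 and 7 reads from 5' to 3', in exons 5, 7 and 8, the last one reaching into intron 7. Each had 1 conversion, all from a single library per cluster, and none was in the conservative list. The prg-1 reads were therefore pooled reads with thin support by conversions.

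The mRNA of hrde-1, named C16C10.3 in the lists and encoding the nuclear Argonaute of germline inheritance of silencing, had 3 consensus clusters with 12 reads. The largest, of 8 reads and 5 conversions, lay in exon 3 at chromosome III, 4174770 to 4174855, had reads from all 3 libraries and was the only one of the 3 in the conservative list. For hrde-1 the T1/V1 replicate 1 list held 0 clusters, the T1/V1 replicate 2 list held 1 cluster of 3 reads and the T1 replicate 3 list held 0. The replicate 2 cluster lay in exon 5 and overlapped none of the consensus clusters.

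The mRNA of alg-4, named tag-76 in the lists and encoding an Argonaute of sperm development, had 2 consensus clusters of 4 and 3 reads, each with 4 conversions. Both had reads from 3 libraries and both were in the conservative list. The mRNA of csr-1, the Argonaute whose small RNAs match expressed germline genes, had 1 cluster of 4 reads and 3 conversions in the exon numbered 7 or 8 by transcript, also in the conservative list. The mRNA of alg-2, a microRNA Argonaute, had 1 cluster of 2 reads and 1 conversion in the exon numbered 4 or 5 by transcript, in the consensus list alone. None of alg-4, csr-1 and alg-2 had a cluster in a library list.

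No cluster in any of the 5 lists named the mRNAs of rde-1, the Argonaute of exogenous RNA interference, alg-1, the other microRNA Argonaute, alg-3, the partner of alg-4 in sperm development, ergo-1, an Argonaute of primary endogenous small RNAs, or nrde-3, a nuclear Argonaute of somatic cells. The genes alg-2 and alg-1 are close paralogues, as are alg-4 and alg-3 and also prg-1 and prg-2. The authors marked the consensus clusters of alg-2, alg-4 and prg-1 as UNIQ40_K0, a label whose name points to unique mapping. The placing of reads within each pair was not otherwise tested. The prg-2 locus, a pseudogene in the name table, had 1 cluster of 4 reads and 7 conversions in intron 2, in both pooled lists, and is not among the 45 genes.

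None of the 5 genes for RNA-dependent RNA polymerases and their cofactors had a sense cluster in any list, against 12.5% of all protein-coding genes. These were rrf-1, which makes secondary small RNAs in the soma, ego-1, its germline counterpart, rrf-3, which acts with Dicer in primary endogenous small RNA synthesis, and the cofactors drh-3 and ekl-1. The 2 microprocessor genes, drsh-1 for Drosha and pash-1 for its RNA-binding partner, likewise had none. The lists name drsh-1 and ego-1 only as the flank of a neighbour: a consensus cluster of 8 reads on the tubulin gene tba-1 lay beside drsh-1, and one of 5 reads on F26A3.4 lay beside ego-1. The lists hold called clusters only, so an absence says that no cluster was called at this depth, not that contact is absent.

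Dicer and its partners had a consensus cluster on 3 of 7 mRNAs, with 10 clusters and 43 reads, against 11.5% of all protein-coding genes. The same 3 were in the conservative list, against 6.97%. Apart from dcr-1, these were drh-1 and eri-3. The mRNA of drh-1, a Dicer-related helicase that binds DCR-1, had 1 cluster of 4 reads and 4 conversions in exon 17, with reads from 3 libraries. In eri-3, a component of the complex that joins DCR-1 to RRF-3, the 1 cluster lay in intron 6 and had 4 reads and 5 conversions, from 2 libraries. No library list named either gene. No cluster in any list fell on the mRNAs of rde-4, the double-stranded RNA binding partner of DCR-1, of the exonuclease eri-1, of eri-5, a Tudor protein of the same complex, or of the RNA phosphatase pir-1.

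For the dcr-1 mRNA itself the T1/V1 replicate 1 list held 0 clusters, the T1/V1 replicate 2 list also held 0 and the T1 replicate 3 list held 2 with 7 reads. Of these 2, a cluster of 4 reads at chromosome III, 8078795 to 8078888, crossed the boundary of exon 6 and intron 6 and overlapped no consensus cluster. The other, of 3 reads in exon 23, was marked as dubious in mapping by the authors. It lay within a consensus cluster of 4 reads at 8072838 to 8072898, which they marked UNIQ40_K0. The gene is read from the minus strand, so its 5' end has the higher coordinates.

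In the consensus list dcr-1 had 8 sense clusters of 2 to 11 reads, 35 reads in all, spread from exon 6 to exon 24. Towards the 5' end, 3 clusters lay in exon 6 (2 reads, 2 conversions), intron 6 (5 reads, 3 conversions) and exon 8 (2 reads, 2 conversions). After a gap without a sense cluster, a cluster of 5 reads and 5 conversions lay in exon 19 at 8073866 to 8073898. Exon 23 then held 3 clusters, of 2, 4 and 11 reads with 1, 3 and 1 conversions, and the last cluster crossed from intron 23 into exon 24 with 4 reads and 3 conversions. The cluster with most reads thus had a single conversion. The clusters in intron 6, exon 8 and exon 19, with 12 reads together, had conversions in 2 libraries each and were the 3 conservative ones. Summed over the 8 clusters, 20 of 44 edits, that is, mismatches to the genome, were T-to-C conversions, or 45.5% (30.4% to 61.2%). The reads of the tagged copy and of the worm's own dcr-1 cannot be told apart, and the sources used here do not say whether the tagged copy has introns.

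**Figure D2:**
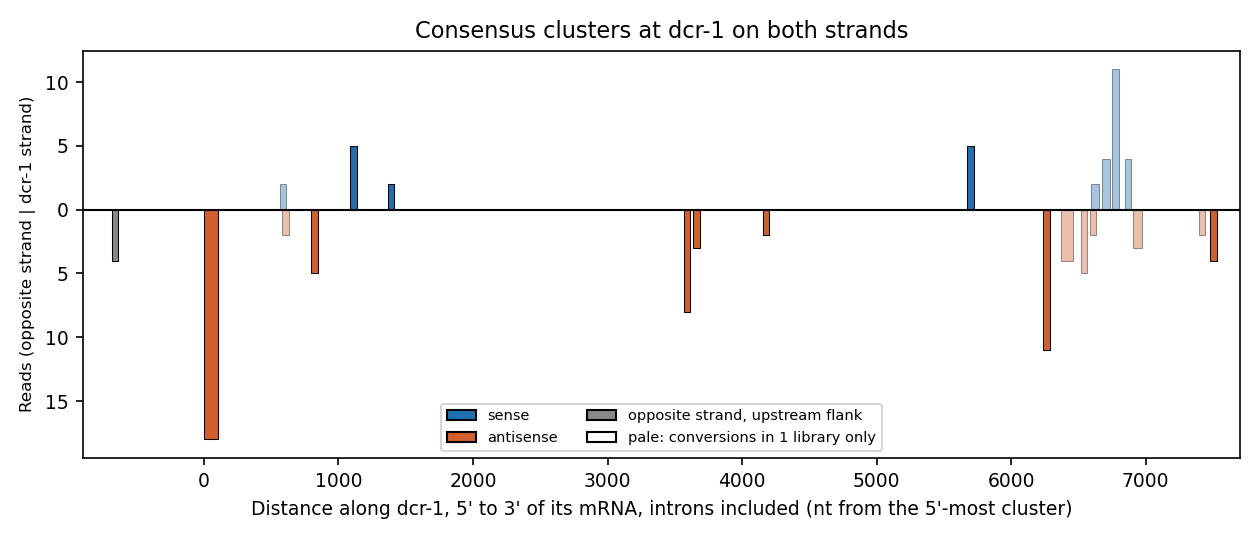
Consensus clusters along dcr-1 (x axis, nucleotides from the cluster nearest the 5' end of the gene, introns included), with reads on the dcr-1 strand drawn upwards and reads on the opposite strand drawn downwards. The 8 sense clusters fall in an upstream and a downstream group, and the 13 antisense clusters lie in 3 groups with gaps between them, the largest cluster, with 18 reads, being nearest the 5' end.

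Clusters also lay on the strand opposite to dcr-1, as the map of both strands shows. The consensus list had 13 antisense clusters with 69 reads there, against 8 sense clusters with 35 reads. Of the 45 pathway genes dcr-1 was the only 1 with an antisense cluster, against 1.59% of all protein-coding genes in the consensus list. In the conservative list it had 7 antisense clusters with 51 reads and 3 sense clusters with 12 reads, and again 1 member stood against 0.921%. The library lists held less: T1/V1 replicate 1 had 0 antisense clusters, T1/V1 replicate 2 had 0 and T1 replicate 3 had 1 of 3 reads, over exon 22.

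The largest antisense cluster covered chromosome III, 8079468 to 8079574, at exon 4 and intron 4, and had 18 reads and 7 conversions, with reads from all 3 libraries. A cluster of 11 reads and 12 conversions lay at exon 21 and intron 21 (8073287 to 8073336), and one of 8 reads and 8 conversions at exon 15 (8075980 to 8076008). A cluster of 5 reads and 8 conversions lay in intron 6 (8078737 to 8078775), within an annotated repeat. All 4 were in the conservative list.

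Conversions made up 49 of 75 edits in the antisense clusters, or 65.3% (53.5% to 76.0%), and 20 of 44, or 45.5% (30.4% to 61.2%), in the sense clusters. These intervals overlap, but they cover counting error only and their overlap does not show that the shares are alike. The difference was not tested. The order was the other way in the conservative list, with 42 of 64, or 65.6% (52.7% to 77.1%), in the antisense clusters and 10 of 14, or 71.4% (41.9% to 91.6%), in the sense clusters. Of the 13 antisense clusters, 5 crossed a splice site of dcr-1, 2 lay wholly in introns and 2 overlapped a sense cluster, by 14 and 26 bases. None had an annotated transcript on its own strand and 3 lay in the flank of a neighbouring gene. A further cluster of 4 reads and 4 conversions lay upstream of the gene on the same opposite strand.

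**Figure D3:**
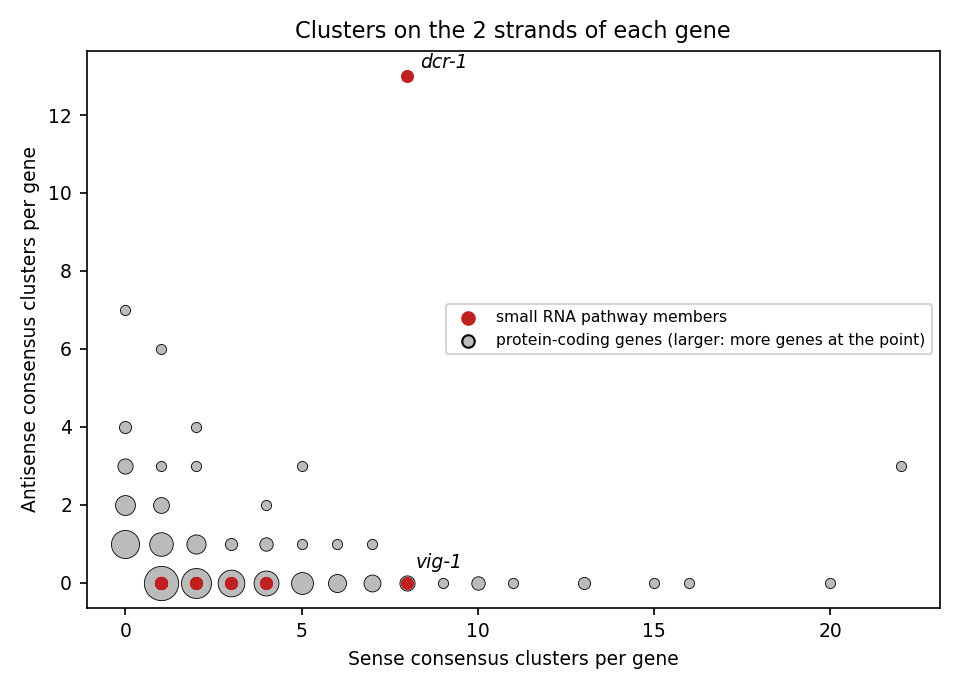
Sense (x axis) and antisense (y axis) consensus clusters per protein-coding gene, with pathway genes in red and grey circles growing with the number of genes at a point. dcr-1 lies at 8 sense and 13 antisense clusters, away from the other genes, and the other 16 pathway genes with a consensus cluster lie on the x axis.

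Over all genes, 318 had an antisense consensus cluster, with a median of 1. In the plot of both strands dcr-1 had the highest antisense count, 13, and the next gene, Y62F5A.9, had 7, some of them of the noncoding class. Both had 7 in the conservative list. By reads dcr-1 was lower, as 26 genes had more antisense reads in the consensus list. At least 3 clusters on each strand were found for dcr-1 and for unc-54, with 22 sense and 3 antisense clusters, and for aex-5, whose 5 sense and 3 antisense clusters also named unc-54. In the conservative list dcr-1 was the 1 gene that met this count. These are ranks, and no test was made of them. As with the sense reads, antisense reads of the tagged copy and of the worm's own dcr-1 cannot be told apart.

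Mutator factors act in foci beside germ granules where secondary small RNAs are made. They had a consensus cluster on 2 of 6 mRNAs, against 11.5% of all protein-coding genes. The mRNA of mut-16, which encodes the scaffold of these foci, had 2 clusters of 3 reads each in exons 1 and 5, with 2 and 4 conversions, each from 1 library, and neither was in the conservative list. The mRNA of mut-7, which encodes a protein with an exonuclease domain, had 1 cluster of 3 reads and 3 conversions in exon 5, with reads from 3 libraries, and it was in the conservative list. No list named mut-2 (rde-3 in the name table), a nucleotidyltransferase, mut-14, a helicase, or mut-15 on the sense strand, and rde-2, a partner of mut-7, was named only as the flank of pfd-6 and hint-1.

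Partners of silencing complexes had a consensus cluster on 4 of 5 mRNAs, against 11.5% of all protein-coding genes, with 15 clusters and 106 reads. The same 4 had 6 conservative clusters with 51 reads, against 6.97% of all protein-coding genes with such a cluster. Most of these reads fell on vig-1, the worm counterpart of the fly VIG protein that was found with the RNA-induced silencing complex. Neither the T1/V1 replicate 1 list nor the T1/V1 replicate 2 list named vig-1, with 0 clusters each, and the T1 replicate 3 list held 4 clusters with 26 reads. The replicate 3 clusters had 4, 16, 2 and 4 reads from 5' to 3', and 3 of them lay within a consensus cluster.

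The 8 consensus clusters of vig-1, on chromosome II between 1321498 and 1323041, had 22, 2, 25, 7, 13, 3, 2 and 12 reads from 5' to 3'. Their conversions, in the same order, numbered 1, 1, 20, 6, 2, 3, 3 and 5. The cluster with most reads, in exon 4 at 1321799 to 1321951, had its 20 conversions at 5 positions and in all 3 libraries. The last cluster, at 1322970 to 1323041, lay in the 3' UTR and also had conversions in all 3 libraries. The first cluster, in exon 3, had almost as many reads but 1 conversion among 11 edits. Support by conversions thus differed along the mRNA, and the 3 conservative clusters, with 40 reads, were those of 25, 3 and 12 reads. No antisense cluster was called at vig-1.

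**Figure D4:**
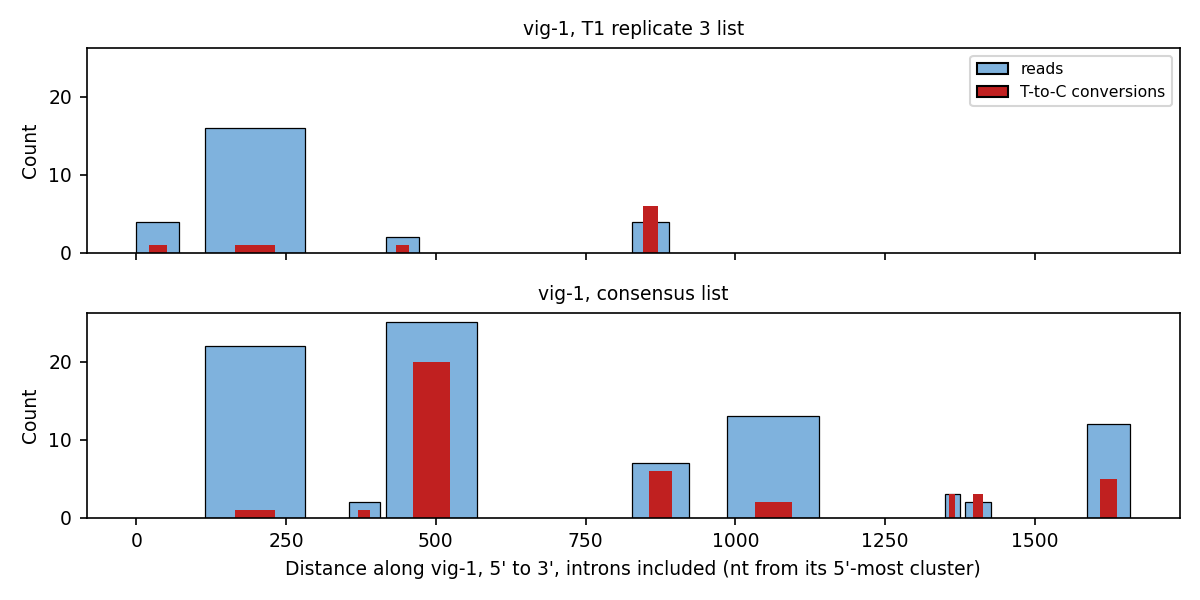
Clusters along vig-1 (x axis, nucleotides from its 5'-most cluster, introns included) in the T1 replicate 3 list (top) and the pooled consensus list (bottom), with reads in blue and T-to-C conversions in red. The consensus cluster of 25 reads carries 20 conversions, whereas the one of 22 reads carries 1.

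The mRNA of nhl-2, which encodes a cofactor of the microRNA complex, had 4 consensus clusters of 6, 2, 2 and 2 reads from 5' to 3'. The cluster of 6 reads, at the boundary of exon 2 and intron 2, had conversions in all 3 libraries. In the library lists nhl-2 had no cluster in either T1/V1 replicate and 1 of 2 reads in T1 replicate 3, at the position of this consensus cluster. The mRNA of ain-1, a worm member of the family of proteins that bind microRNA Argonautes, had 2 clusters: one of 2 reads in exon 5, in the conservative list, and one of 3 reads in the 3' UTR. The mRNA of tsn-1, the Tudor staphylococcal nuclease, had 1 consensus cluster of 3 reads and 2 conversions in exon 4. It also had 1 cluster of 2 reads in exon 2 in T1 replicate 3 alone. No list named ain-2, the relative of ain-1.

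Of the 2 exonuclease genes, xrn-2, whose protein degrades RNA from the 5' end and turns over mature microRNAs, had 4 consensus clusters with 13 reads. They had 5 reads in intron 3, 3 in exon 4, 2 in exon 5 and 3 in exon 6, and the exon 4 cluster, with 6 conversions among 7 edits, was the conservative one. No library list named xrn-2, and no list named xrn-1, its cytoplasmic relative. None of the 4 RNA modifying enzymes had a cluster in any list, against 12.5% of all protein-coding genes. These were henn-1, which methylates small RNAs, and cde-1 (cid-1 in the name table), which adds uridines to small RNAs bound to CSR-1. The others were the adenosine deaminase family genes adr-1 and adr-2.

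Nuclear and systemic factors had a consensus cluster on 2 of 4 mRNAs, against 11.5% of all protein-coding genes. Both were also in the conservative list, against 6.97%. The mRNA of rsd-2, a factor of RNA interference in the germ line, had 1 cluster of 7 reads across splice sites, with 10 conversions at 6 positions. The mRNA of nrde-2, named T01E8.5 in the lists and encoding a factor of nuclear silencing, had 1 cluster of 4 reads and 2 conversions in exon 10. Neither was in a library list. No list named rsd-6, a Tudor protein, or sid-1, which encodes a channel for double-stranded RNA.

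The 44 consensus clusters lay mostly in coding sequence: 39, or 88.6% (75.4% to 96.2%), were in coding exons, against 84.1% of the 3742 clusters on coding transcripts. There were 0 in 5' UTRs, against 1.44%, and 2 in 3' UTRs, on vig-1 and ain-1, which is 4.55% against 7.27%. A further 3 lay in introns, in dcr-1, eri-3 and xrn-2, which is 6.82% against 7.16%. Splice sites were crossed by 7 clusters, or 15.9% (6.64% to 30.1%), against 8.79%. In each of these classes the value over all coding transcript clusters lay within the members' interval. The order of the intron shares turned in the conservative list, to 10.5% of the members' clusters against 9.57% over all. None of the 44 was also of a noncoding class and none named a second gene.

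**Figure D5:**
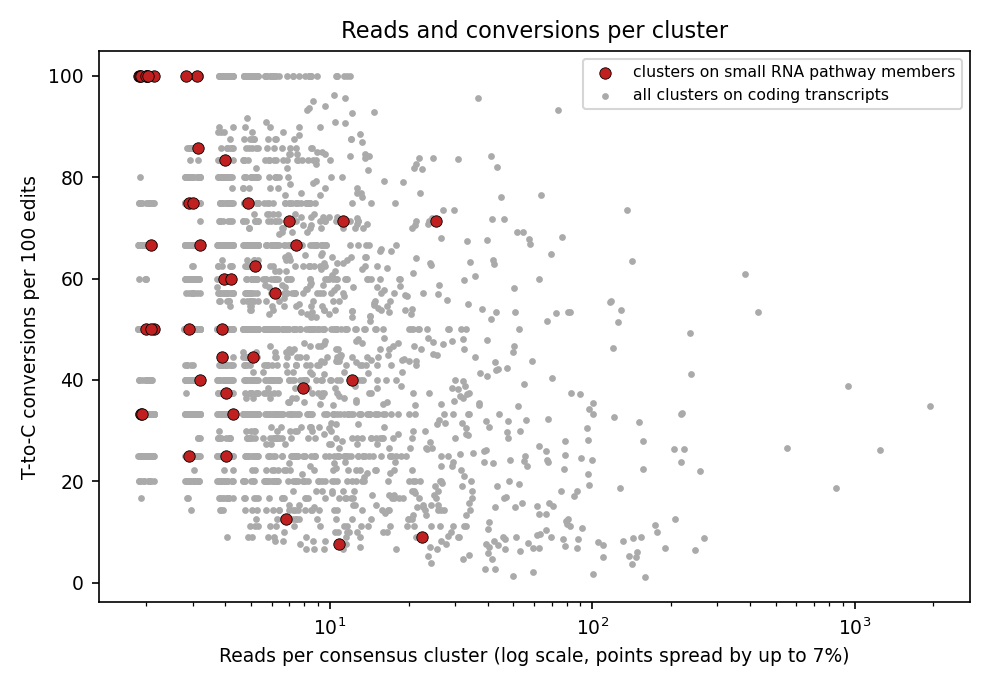
Reads (x axis, log scale) and T-to-C conversions per 100 edits (y axis) of each consensus cluster on a coding transcript, with the 44 clusters on pathway mRNAs in red. The red points lie at 2 to 25 reads and cover most of the range of conversions, whereas the grey points reach 1854 reads.

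Conversions made up 140 of 257 edits in the members' clusters, 54.5 per 100 (48.2 to 60.7), against 42.3 per 100 (41.9 to 42.8) over all clusters on coding transcripts. The members' clusters had fewer reads, with a median of 3 against 4 and a highest value of 25 against 1854, as the plot of reads and conversions shows. Of the 44, 14, or 31.8%, had 2 reads, against 22.8% over all, and 13, or 29.5%, had 5 or more reads, against 42.8% over all. The makeup of the clusters differed too. Intron clusters held 13493 of the 40694 reads over all, against 14 of the members' 220. Over all, 4.17% were also of a noncoding class, against none of the members' clusters. The part of read number or of this makeup in the difference in conversions was not tested. With vig-1 left out the members' value was 52.7 per 100, and with clusters of at least 5 reads alone it was 49.3. The value over all coding transcript clusters of at least 5 reads is not given here, so the 49.3 has no like figure beside it. Reads from all 3 libraries were found in 18 of the 44 clusters, or 40.9%, against 45.2%, and in the conservative list in 13 of 19, or 68.4%, against 64.7%. Conversions were found in 3 libraries in 3 of the 44 clusters, or 6.82%, against 10.8% over all. They were found in 2 libraries in 16, or 36.4%, against 41.3%, and in 1 library in 25, or 56.8%, against 47.9%.

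The library lists gave little overlap. No member was named in T1/V1 replicate 1, where 0.841% of all genes were, and 1, hrde-1, was named in T1/V1 replicate 2, against 0.801%. T1 replicate 3 named 4, which were vig-1, dcr-1, nhl-2 and tsn-1, against 3.63%. In any of the 3 lists 5 members were named, against 4.22%, and without T1 replicate 3 the count was 1. The T1 replicate 3 list also held the most reads within clusters, and sequencing depth is not in the lists. Depth, nuclease and adapter therefore cannot be told apart here. Of the members' 9 library clusters, 0 overlapped a cluster of another library on the same strand by at least 1 base, against 291 of 1278, or 22.8%, over all protein-coding genes. As 8 of the 9 came from T1 replicate 3, the nearer figure is that list's own, 0 of 8 for the members and 119 of 919, or 12.9%, for all protein-coding genes. A consensus cluster was overlapped by 5 of the 9, all from T1 replicate 3. This is 55.6%, against 849 of 1278, or 66.4%, over all protein-coding genes. In T1 replicate 3 alone the shares were 62.5% for the members and 69.4% for all protein-coding genes. The consensus list pools these same libraries, so such overlap is not independent recurrence. Of the 44 consensus clusters 5, or 11.4%, overlapped any library cluster, against 18.8% of those on coding transcripts, so that 39 of the 44 were called only in the pooled lists.

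Other genes of the same pathways were counted from a list of 47 names, of which 42 matched a protein-coding gene. Set against the 37.8% of the 45 members, 23.8% of these genes, or 10 of 42, had a consensus cluster. For the conservative list the members' share was 31.1% and that of the other genes 19.0%, or 8 of 42. With at least 5 reads both sets had 7 genes, against 5.21% of all protein-coding genes. The most reads fell on cgh-1, a helicase of germ granules and translational repression, with 4 consensus clusters and 52 reads. Its library values were 16 reads for T1/V1 replicate 1, 0 for T1/V1 replicate 2 and 23 for T1 replicate 3. Next were glh-1 with 31 reads, then lin-41, a developmental regulator that is a target of let-7, the germ granule gene pgl-1 and the helicase gene rde-12 with 12 each, and deps-1 and pgl-3, germ granule components with 6 each.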

How the data were processed

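In vivo PAR-CLIP libraries of DCR-1 (3 samples) were analysed from 5 deposited cluster lists, 1 per library and 2 pooled. Reads were aligned with Bowtie2 2.1.0, per the submitters' processing notes, and the authors called clusters at an estimated false discovery rate of 5%, per the file attributes. The sources used here do not name the genome build, and coordinates are the authors'. The deposited counts are the T-to-C conversions, reads and edits (mismatches) of each cluster, not normalised, and the entropy score of each cluster is the authors' deposited score, which was read but enters no result. Reads are PCR products without molecular identifiers, so exact (Clopper-Pearson) 95% binomial intervals cover counting error only. The reads within called clusters, 7829 to 24992 per library list, limit the precision. The sequencing depth of each library is not in the lists.

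Genes were taken from the authors' sense annotation, in which 2520 of 2574 gene names matched the name table (RefSeq, used for names alone) and 54 did not. Of the members, 2 matched under another symbol. A cluster's part of the mRNA was taken in the order coding exon, 5' UTR, 3' UTR, intron. The members and lists were chosen with earlier results of these data known, and no test was made of them. Every member with a cluster was named, and of the other pathway genes those with most consensus reads, up to 6, of which the last was tied. Alternatives were a minimum of 5 reads or 2 conversions, the conservative list, exons alone, single-gene clusters and leaving out each library. Matching and overlap were tested on simulated data. Python 3.11.15, SciPy 1.17.1 and matplotlib 3.10.9 were used.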

Additional observations from a re-analysis of the deposited data

How the results depend on the processing

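Of 39 alternatives, 26 left the reported value within 1.5 times the count or within its interval. Some of these could not move it. No member cluster named a second gene, and the overlap between library lists was already 0. The 39 also include alternatives for the other pathway genes and alternatives chosen after seeing the data. The count of 26 is therefore not a measure of how stable the members' values are. Some comparisons turned in order in the conservative list. They included dcr-1 conversions per 100 edits (antisense 65.6, sense 71.4) and the median reads per gene with a cluster (4 for members, 6 over all). The members' shares of clusters in introns (10.5% against 9.57% over all) and with reads from 3 libraries (68.4% against 64.7%) also turned. With at least 5 reads per cluster, the members with a cluster numbered 7 in the consensus list, 5 in the conservative list, 7 in any list and 1 in the library lists. Leaving out each library in turn gave 1 to 5 members in the library lists, the lowest without T1 replicate 3. In the conservative list the members had 107 reads and 63.9 conversions per 100 edits, against 43.4 over all clusters on coding transcripts. In that list dcr-1 had 12 sense reads. The median over the members' consensus clusters was 61.3 conversions per 100 edits, against 50 over all consensus clusters on coding transcripts. Alternatives chosen after seeing the data left 134 reads without vig-1, and gave 7 antisense dcr-1 clusters in the conservative list, 5 with at least 5 reads and 8 with at least 2 conversions. The lists hold called clusters only, so depth limits every absence. No paired analysis was possible because the T1/V1 and T1 libraries share no replicate number.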
